A study of Mus musculus with 2 samples.

Results

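The strong CTCF peaks at one-direction promoters are 864 peaks of the 65482 in the optimal list of a chromatin immunoprecipitation and sequencing (ChIP-seq) experiment on mouse kidney. They were chosen by 3 criteria. The peak lay on chromosomes 1 to 19, its summit lay within 1 kb of an annotated transcription start site (TSS) of a protein-coding gene with all such TSSs on 1 strand, and its signal was in the upper 10% of all peaks in the list, at 307.267 or above. TSSs of all annotated transcripts of protein-coding genes were used, and with protein-coding transcripts only there were 661 such peaks. The tissue was kidney, taken at postnatal day 0 from the B6NCrl strain, with no treatment named in the labels and sex not collected. Kidney holds many cell types, and a peak here cannot be assigned to one. The only group holds 2 libraries, which the labels number as biological replicates 1 and 2 but assign to the same biosample and donor, so the spread between them may be technical. No group was compared with another. The antibody target was CTCF, and the experiment measured no expression, so the tissue label could not be checked against marker genes and an annotated TSS here is not a measured one. The peak lists hold no read counts, so the depth of the libraries is unknown.

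CTCF is a DNA-binding protein with a row of zinc fingers that reads a long, asymmetric motif. It holds cohesin at loop anchors, and most loops form between motifs that point towards each other, so the direction of a motif is part of its function. At promoters CTCF is known both to anchor contacts with distant enhancers and to act close to the start site itself. Methylation of a CpG at one position of the motif core is known to weaken its binding.

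Most of these peaks lay upstream of the nearest annotated TSS, and just upstream of it their motifs mostly read in the direction of transcription. Upstream of a TSS is not always outside the gene, since 400 summits (46.3%) lay outside protein-coding genes and the others within them. Of the 864 summits, 647 (74.9%, 95% Wilson interval 71.9 to 77.7) lay upstream of the nearest TSS. A CTCF motif match lay within 100 bp of 626 summits (72.5%, 69.4 to 75.3), a share that depends on the score threshold and was 17.7% at a stricter one. Of the 247 matches centred within 200 bp upstream of the TSS, 178 (72.1%, 66.2 to 77.3) lay on the strand of transcription, a range chosen after its values were seen. Farther upstream the share was 51.5% (44.6 to 58.4), and downstream of the TSS 45.4% (38.3 to 52.6). All Wilson intervals cover counting error only, and peaks are not replicates of a condition, so no p-value was computed over them.

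The promoters of Med4, Adprhl2, Lsm11 and Twf2 show the arrangement and its reverse. The 160 bases that end at the base before the TSS are printed 5′ to 3′ on the strand of transcription, from the RefSeq copy of GRCm38.p6, the assembly of the mm10 peaks, with the 19 bases of the match in capitals. None of these windows overlaps an annotated exon. The summit of Twf2 lay in an intron, more than 1 kb from the annotated 5′ end of the gene. Those of Med4, Adprhl2 and Lsm11 lay outside genes, within 1 kb of that end. In Med4, which encodes a subunit of the Mediator complex (chr14:73509865-73510024, forward strand), and Adprhl2, which encodes an ADP-ribose hydrolase (chr4:126321704-126321863, reverse strand), the match reads with transcription, and its centre lay 122 and 50 bp upstream.
Med4: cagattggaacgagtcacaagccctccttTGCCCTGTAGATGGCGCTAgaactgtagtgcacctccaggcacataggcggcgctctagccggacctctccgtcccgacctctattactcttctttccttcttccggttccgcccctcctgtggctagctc
Adprhl2: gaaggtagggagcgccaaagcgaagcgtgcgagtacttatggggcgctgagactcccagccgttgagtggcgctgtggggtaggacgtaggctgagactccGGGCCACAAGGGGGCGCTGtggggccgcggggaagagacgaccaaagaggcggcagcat
In Lsm11, which encodes a protein of the U7 particle that processes histone mRNA (chr11:45944936-45945095, reverse strand), and Twf2, which encodes the actin-binding protein twinfilin 2 (chr9:106212029-106212188, forward strand), the match lies on the other strand, so the capitals are the reverse complement of the motif. Their centres lay 98 and 53 bp upstream.
Lsm11: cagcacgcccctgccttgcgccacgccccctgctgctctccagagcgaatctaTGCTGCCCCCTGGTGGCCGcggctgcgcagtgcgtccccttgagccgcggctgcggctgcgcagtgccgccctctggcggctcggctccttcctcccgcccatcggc
Twf2: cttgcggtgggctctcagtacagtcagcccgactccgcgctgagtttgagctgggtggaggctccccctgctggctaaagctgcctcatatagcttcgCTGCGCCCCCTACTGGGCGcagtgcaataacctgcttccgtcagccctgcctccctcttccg

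The 12 strongest peaks came from genes of unlike function, and each held a motif match. Of all peaks in the optimal list, the peak of Gins4, which encodes a subunit of the GINS complex of the replicative helicase, ranked 13. Its rank was 19 in the list of replicate 1 and 21 in that of replicate 2. The peak of Polr3gl, which encodes an RNA polymerase III subunit, ranked 4 and 41 in the libraries, and that of Acbd4, which encodes an acyl-CoA-binding domain protein, 22 and 42. The peak of H2-DMa, which encodes a chain of the peptide-loading factor of MHC class II, ranked 23 and 44. None of these 4 ranked below 44 in either library.

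Lsm11 ranked 46 in replicate 1 and 23 in replicate 2, and Med4 ranked 62 and 36. Iqsec1, which encodes an exchange factor for ARF GTPases, ranked 33 and 47, and Twf2 ranked 57 and 54. Top1mt, which encodes the mitochondrial type I topoisomerase, ranked 41 and 55. The remaining 3 differed more between libraries: Ccdc110 ranked 101 and 28, Sept9, which encodes a septin, 32 and 108, and Adprhl2 132 and 33. Of these 12 summits, those of Acbd4 and H2-DMa lay in UTR sequence, that of Polr3gl in a coding exon, and the others in introns or outside genes.

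The match sites of these peaks are shown with 5 bases on each side, each on the strand of the match, since they show which letters of the core vary among the strongest sites. Capitals mark the 19 bases scored.
Gins4 (chr8:23237878-23237906, reverse): ccgatTCGCCACAAGACGGCGCTGcctgg
Polr3gl (chr3:96580379-96580407, reverse): cacggGGACCACAGGAGGGCAGCAgaccg
Acbd4 (chr11:103102807-103102835, forward): gtgggTTTCCACCAGGGGGCGCGAggact
H2-DMa (chr17:34135411-34135439, forward): ccgacCTTCCACCAGGGGGCGGAGgtctc
Lsm11 (chr11:45945019-45945047, forward): agccgCGGCCACCAGGGGGCAGCAtagat
Med4 (chr14:73509889-73509917, forward): tccttTGCCCTGTAGATGGCGCTAgaact
Iqsec1 (chr6:90737606-90737634, reverse): gcttcTAGGCACCAGGGGGCGCTGcttgg
Twf2 (chr9:106212122-106212150, reverse): cactgCGCCCAGTAGGGGGCGCAGcgaag
Top1mt (chr15:75679452-75679480, reverse): ggccgTGTCCAGCAGGGGGCCCACtagcc
Ccdc110 (chr8:45934942-45934970, reverse): ctctgTGGCCACCAGAGGGCGCGCtatga
Sept9 (chr11:117358473-117358501, reverse): gggaaCGACCACCAGGGGGCGTACccaga
Adprhl2 (chr4:126321739-126321767, reverse): actccGGGCCACAAGGGGGCGCTGtgggg

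Both libraries listed every one of the 864 peaks. In each library the upper set is the 65482 peaks with the highest signal of its relaxed list of 300000, and all 864 overlapped a peak of both upper sets (100%, 99.6 to 100), against 78.5% of all optimal peaks on chromosomes 1 to 19. Above the same signal, all 5625 peaks with no protein-coding TSS within 1 kb did so too. The same held for all 38 with such TSSs on both strands, so this share is not particular to the members. It follows at least in part from the choice by signal, since that signal was made from both libraries pooled. Ranks ran from 4 to 12626 in replicate 1, with a median of 3079.5, and from 21 to 12020 in replicate 2, with a median of 2816.5. The upper 10% of the upper set held 767 of the peaks (88.8%) in replicate 1 and 778 (90.05%) in replicate 2, and 681 (78.8%) stood there in both. The median distance between the pooled summit and the library's own summit was 2 bp in replicate 1 and 3 bp in replicate 2. Over these peaks Spearman's rho between library ranks was 0.444 (n = 864), against 0.911 over 62218 peaks on the same chromosomes matched in both. These values are across peaks, and the choice by signal narrows the range of ranks.

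**Figure D1:**
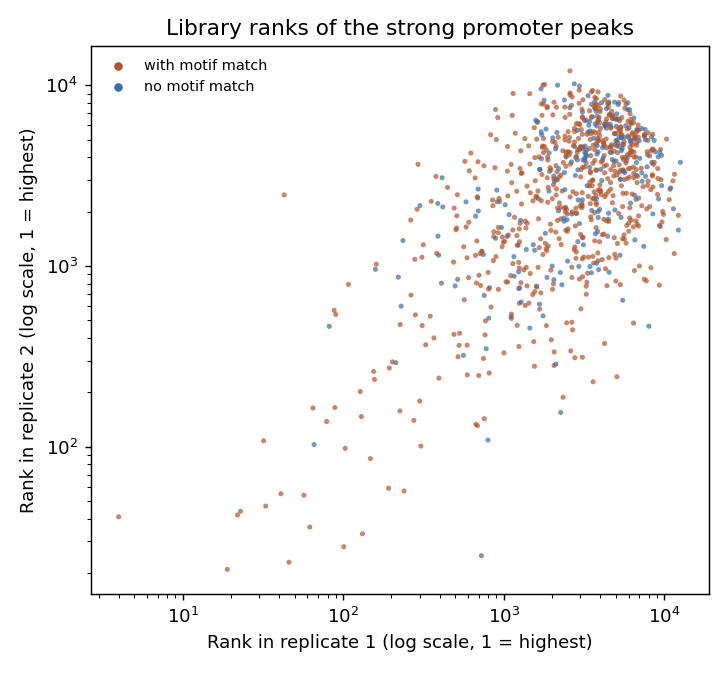
Rank of each of the 864 strong one-direction promoter peaks in the list of replicate 1 (x axis, log scale) and replicate 2 (y axis, log scale), where 1 is the highest signal and colour marks whether a motif match lay within 100 bp of the summit. The peaks spread from rank 4 to 12626 in replicate 1 and from 21 to 12020 in replicate 2.

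The peaks that differed most in percentile between libraries stood higher in replicate 2 in 5 of 6 cases. The peak of Coil, which encodes the Cajal body protein coilin, ranked 12262 in replicate 1 and 1581 in replicate 2, and that of Scn1a, which encodes a neuronal sodium channel, ranked 11549 and 1173. Nabp2, which encodes a single-stranded DNA binding protein, ranked 12268 and 1909. Sema4c, which encodes a semaphorin, ranked 11425 and 2074, and Clu, which encodes the secreted chaperone clusterin, 10298 and 1402. Cecr2, which encodes a bromodomain protein, went the other way with ranks of 2589 and 12020. The lowest percentile of any member was 95.8 in the list of replicate 1 and 96.0 in the list of replicate 2.

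At the lower edge of the choice the signal changed little from 1 peak to the next. The weakest members were the peaks of Adnp (signal 307.27), Hook2 (307.463) and Mfsd4a (307.497). The strongest one-direction promoter peaks left out were those of Aipl1 (306.924), Trpm5 (306.668) and Nr6a1 (306.470). The libraries ordered these 6 differently. Aipl1 ranked 9801 in replicate 1 and 3482 in replicate 2, Adnp 10350 and 5037, Nr6a1 7896 and 4949, and Mfsd4a 7641 and 4993. Hook2 ranked 6890 and 6032, and Trpm5 stood higher in replicate 1, at 6291 and 8062.

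The 864 peaks had 845 different nearest genes, and 852 genes had a TSS within 1 kb of one. They made up 8.71% of the 9921 one-direction promoter peaks and 13.2% of the 6527 peaks above the same signal on chromosomes 1 to 19. Of 770 peaks at bidirectional promoters, with TSSs on both strands within 1 kb, 4.94% were above that signal, and of 53165 distal peaks 10.6% were. Chromosome 11 held the most members, 98, and chromosome 12 the fewest, 21. Only 384 members (44.4%) had a single annotated TSS within 1 kb, and the median was 2. The rule reads protein-coding TSSs alone. On the other strand within 1 kb, 68 members (7.87%, 6.26 to 9.86) had a TSS of a long non-coding gene. For these the name one-direction holds for protein-coding genes only. Genes awaiting experimental confirmation counted as long non-coding, and small RNA genes and pseudogenes were not searched. Among the weaker peaks at one-direction promoters the share with such a long non-coding TSS was 10.3% (9.69 to 10.9).

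In 19 genes a pair of members shared the nearest gene, and no gene had more than 2. They were Abca4, Adam15, Ap5b1, Cdk9, Col1a1, Coq2, Cuedc1, Extl3, Fancc, Gli1, Gng8, Hook2, Pear1, Pfkfb3, Rhof, Sept9, Trp53i11, Vps13d and Wrb. In Abca4, which encodes a retinal lipid transporter, the summits lay far apart at 122122199 and 122169769 on chromosome 3, at ranks 2040 and 5681. In Col1a1, which encodes a chain of type I collagen, the summits lay closer, at 94937163 and 94939477 on chromosome 11, and their matches faced opposite ways, reverse and forward. In Gli1, the zinc-finger factor of Hedgehog signalling, they lay at 127339041 and 127342487 on chromosome 10, with a forward and a reverse match. In Trp53i11 they lay at 93199049 and 93199617 on chromosome 2, with a reverse and a forward match. Not all pairs were of this kind. Both matches of Cdk9 were forward, and both of Sept9 and both of Wrb were reverse. Other pairs, such as those of Fancc and Extl3, held a member without a match.

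The summits gathered upstream of the start site. The median summit lay 74 bp upstream of the nearest TSS, and the median distance in either direction was 184.5 bp. Of the members, 591 (68.4%) lay upstream of all TSSs within 1 kb, 89 (10.3%) between TSSs and 184 (21.3%) downstream of all. Among the 9057 weaker peaks at one-direction promoters 56.8% (55.8 to 57.8) lay upstream of the nearest TSS, against 74.9% (71.9 to 77.7) of the members, and 47.9% lay upstream of all, against 68.4%. The difference was not tested, and these intervals cover counting error only. By annotation 400 member summits (46.3%) lay outside genes, 343 (39.7%) in introns, 74 (8.56%) in UTRs and 47 (5.44%) in coding exons. Only protein-coding genes were read here, so a summit in a non-coding gene can count as outside genes. UTRs and coding exons were those of protein-coding transcripts, and the rest of a gene counted as intron. For the weaker peaks the shares were 31.3% outside genes, 42.1% in introns, 16.7% in UTRs and 9.82% in coding exons.

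The matches were spread over the same range as the summits, with their highest density just upstream of the TSS. In windows of 20 bp, the most matches (46) were centred 61 to 80 bp upstream of the TSS, and the windows from 41 to 60 bp and from 81 to 100 bp held 40 and 39. Within the first 100 bp upstream lay 176 match centres, and within the first 100 bp downstream 28. A match lay close under its summit, with a median distance of 6 bp from the summit to the centre of the match.

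**Figure D2:**
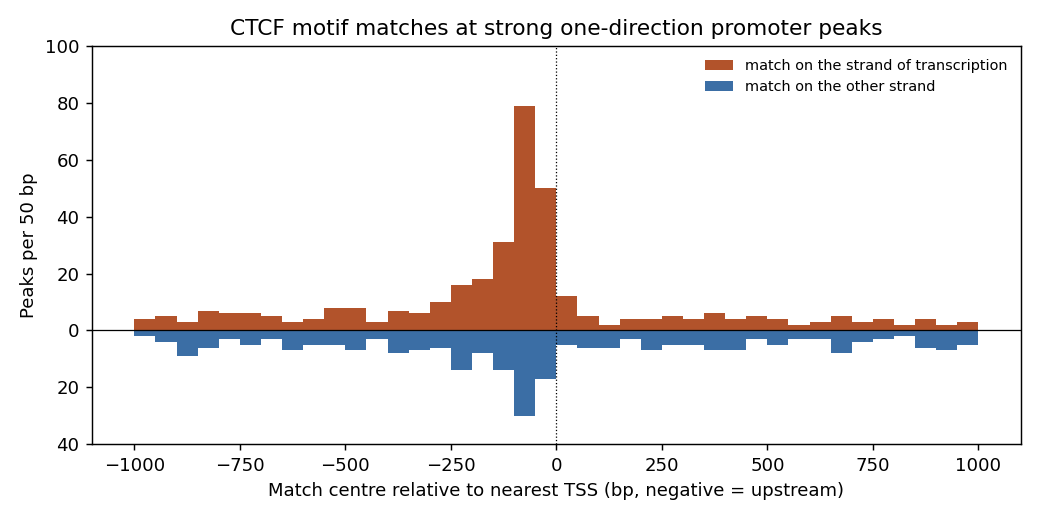
Number of matches per 50 bp (y axis) by the position of the match centre relative to the nearest TSS in bp (x axis, negative is upstream), for the 626 strong one-direction promoter peaks with a match; bars above the line are matches on the strand of transcription and bars below it are matches on the other strand. Matches gather in the 200 bp upstream of the TSS, where 178 lie on the strand of transcription and 69 on the other.

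Over all positions 362 of 626 matches (57.8%, 53.9 to 61.6) lay on the strand of transcription, and the excess sat near the start site. From 1 to 100 bp upstream 129 of 176 did so (73.3%, 66.3 to 79.3), and from 101 to 200 bp 49 of 71 (69.0%, 57.5 to 78.6). The counts were 101 of 196 farther upstream and 83 of 183 downstream, and the interval of each included 50%. In the first 100 bp downstream 17 of 28 lay on the strand of transcription (60.7%, 42.4 to 76.4). Within 200 bp upstream 18 of the 19 chromosomes had more matches on the strand of transcription than on the other. These counts split the same 247 matches, with 2 on chromosome 12 and 28 on chromosome 11, so they add no independent support. With members chosen from replicate 2 alone the share within 200 bp was 73.3%, and from replicate 1 alone 72.1%. The strand of a match is read from the reference sequence and both libraries share a biosample, so these values are not independent.

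The weaker peaks at one-direction promoters had lower shares in the first 200 bp upstream. From 1 to 100 bp upstream 217 of 349 of their matches lay on the strand of transcription (62.2%, 56.98 to 67.1). From 101 to 200 bp it was 105 of 210 (50%, 43.3 to 56.7), against 49 of 71 (69.0%, 57.5 to 78.6) in the members. These differences were not tested. In the first 100 bp downstream the weaker peaks had 79 of 131 (60.3%, 51.7 to 68.3), close to the 60.7% of the members. From 101 to 200 bp downstream they had 38 of 110 (34.5%, 26.3 to 43.8), and the members 6 of 15 (40%, 19.8 to 64.3). One-direction TSSs with no optimal peak within 1 kb were scanned too, and binding below the threshold of that list was not examined there. Their first 200 bp upstream held 424 matches, of which 210 (49.5%, 44.8 to 54.3) lay on the strand of transcription.

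**Figure D3:**
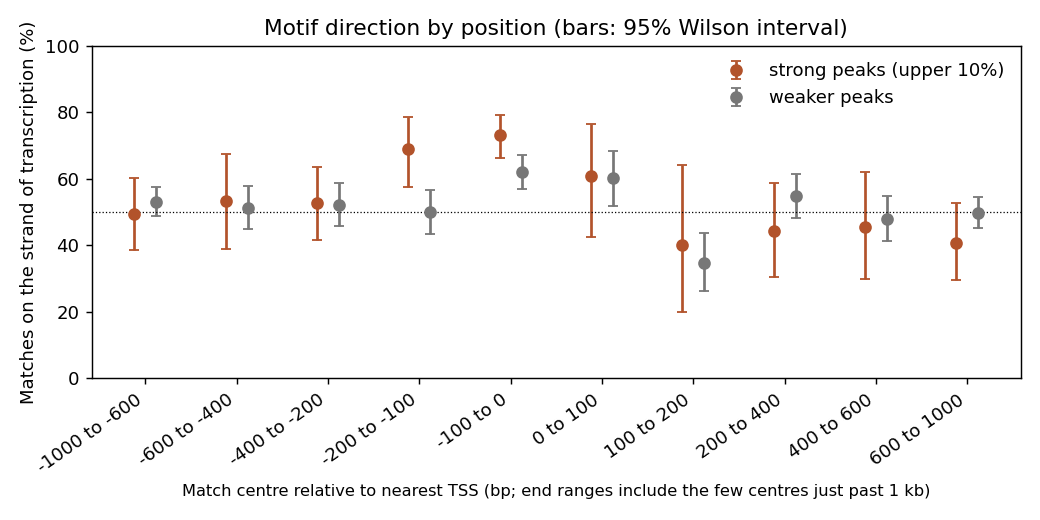
Share of motif matches on the strand of transcription (y axis, percent) by position of the match centre relative to the nearest TSS (x axis, bp), for strong and weaker peaks at one-direction promoters; points are shares, bars are 95% Wilson intervals and the dotted line is 50%. The strong peaks stand at 73.3% from 1 to 100 bp upstream and at 69.0% from 101 to 200 bp, and the weaker peaks at 62.2% and 50%.

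Over all positions, matches at the outermost start of a gene read with transcription more often, by count, than those at internal promoters. A member was counted at the outermost start of its gene if its summit lay within 1 kb of the annotated 5′ end of the gene, and otherwise at an internal promoter. There were 525 outermost members (60.8%) and 339 internal ones. Of the outermost, 460 (87.6%, 84.5 to 90.2) lay upstream of the nearest TSS, and of the internal 187 (55.2%, 49.8 to 60.4). At outermost starts 226 of 341 matches (66.3%, 61.1 to 71.1) lay on the strand of transcription, and at internal promoters 136 of 285 (47.7%, 42.0 to 53.5). Within 200 bp upstream the shares were 76.0% (130 of 171, interval 69.1 to 81.8) and 63.2% (48 of 76, interval 51.9 to 73.1), and these intervals overlap. Farther upstream they were 58.8% (70 of 119, interval 49.8 to 67.3) and 40.3% (31 of 77, interval 30.0 to 51.4). Downstream of the TSS they were 51.0% (26 of 51) and 43.2% (57 of 132). Whether these starts are used in newborn kidney was not measured, and the difference between the kinds was not tested.

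Members of all 4 arrangements were among the strongest. Upstream on the strand of transcription lay 279 matches, led by Gins4, Polr3gl and Acbd4, whose centres lay 233, 238 and 200 bp from the TSS. Upstream on the other strand lay 164, led by Lsm11, Twf2 and Sept9 at 98, 53 and 873 bp. Downstream on the strand of transcription lay 83, led by Cln6, which encodes a membrane protein of the endoplasmic reticulum, Pick1, which encodes a PDZ domain protein, and Pik3r2, which encodes a regulatory subunit of phosphoinositide 3-kinase. Their matches lay 856, 411 and 103 bp downstream of the nearest TSS, in each case an internal one, and the peaks ranked 148, 79 and 89 in replicate 1 and 86, 138 and 165 in replicate 2. Downstream on the other strand lay 100, led by Ccdc110, Stat3, which encodes a transcription factor of cytokine signalling, and Ankrd39, at 314, 114 and 53 bp. Stat3 ranked 240 in replicate 1 and 57 in replicate 2. The downstream sites are shown on the strand of the match.
Cln6 (chr9:62847875-62847903, forward): cacagCGGCCACTAGAGGGCAGCAagcag
Pick1 (chr15:79243365-79243393, forward): gccttTGACCAGGAGGTGGCGCTGctgtc
Pik3r2 (chr8:70769547-70769575, reverse): tctccTGCTCACCAGGGGGCGCTCgtgcg
Stat3 (chr11:100893615-100893643, forward): gccagTGGCCAGCAGGTGGAGCAAgtgat
Ankrd39 (chr1:36547378-36547406, forward): ctttgCTACCACGGGAGGGCGCCCaaggc

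The motif was scored with a matrix of 19 bases learned from peaks more than 10 kb from any protein-coding TSS, so no member shaped it. A match passed the log2 odds score (13.1) that 1 in 10000 positions passed in windows 2 kb from the summits. Its consensus reads TGGCCACCAGGGGGCACTA. The members held a match at 72.5% of summits against 1.97% of windows 2 kb to either side of them, a value that the threshold itself largely sets. At the score that 1 in 100000 positions passed, the members' share was 17.7%. The share was 28.6% (27.7 to 29.5) for the weaker one-direction peaks, 60.5% (44.7 to 74.4) for the 38 strong bidirectional peaks and 89.3% (88.5 to 90.1) for the 5625 strong distal peaks, some of which trained the matrix. Matched members had a median score of 17.7, weaker one-direction peaks 16.2 and strong distal peaks 19.02. Only 33 members (3.82%) held 2 or more matches. Of the members' matches 4.63% were mostly soft-masked as repeats. The share was 6.97% for strong distal peaks and 0 of 23 for strong bidirectional peaks, which allows up to 14.3% (Wilson), and 26.7% for the weaker one-direction peaks.

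The matches of strong promoter peaks carried CpG dinucleotides more often, by count, than those of strong distal peaks. A CpG lay in 420 of 626 matches (67.1%, 63.3 to 70.7), against 46.5% (45.1 to 47.9) of strong distal and 47.0% (45.0 to 48.9) of weaker one-direction matches. The strong bidirectional peaks had only 23 matches, and their intervals are wide. A CpG lay in 16 of 23 (69.6%, 49.1 to 84.4) and one at core bases 2 and 3 in 6 of 23 (26.1%, 12.5 to 46.5). The CpG positions are counted along the 13-base core of the motif, which can hold a CpG at bases 2 and 3 and at bases 12 and 13. At bases 2 and 3 the share was 105 of 626 (16.8%, 14.1 to 19.9) in members, 4.20% (3.68 to 4.79) in strong distal and 5.48% (4.67 to 6.43) in weaker one-direction matches. At bases 12 and 13 it was 56.5% (52.6 to 60.4), 37.4% and 37.3%. In strong bidirectional matches it was 10 of 23 (43.5%, 25.6 to 63.2), between the shares of the members and the strong distal matches. The sequence around the summits differed between these sets too. Over 500 bp the ratio of observed to expected CpG was taken at all summits of a set, with or without a match. Its median was 0.548 for members, 0.576 for weaker one-direction peaks, 0.707 for strong bidirectional peaks and 0.267 for strong distal peaks. For the members with a match it was 0.469, and no such value was computed for the other sets. The part of this ratio in the CpG of the match was not tested.

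**Figure D4:**
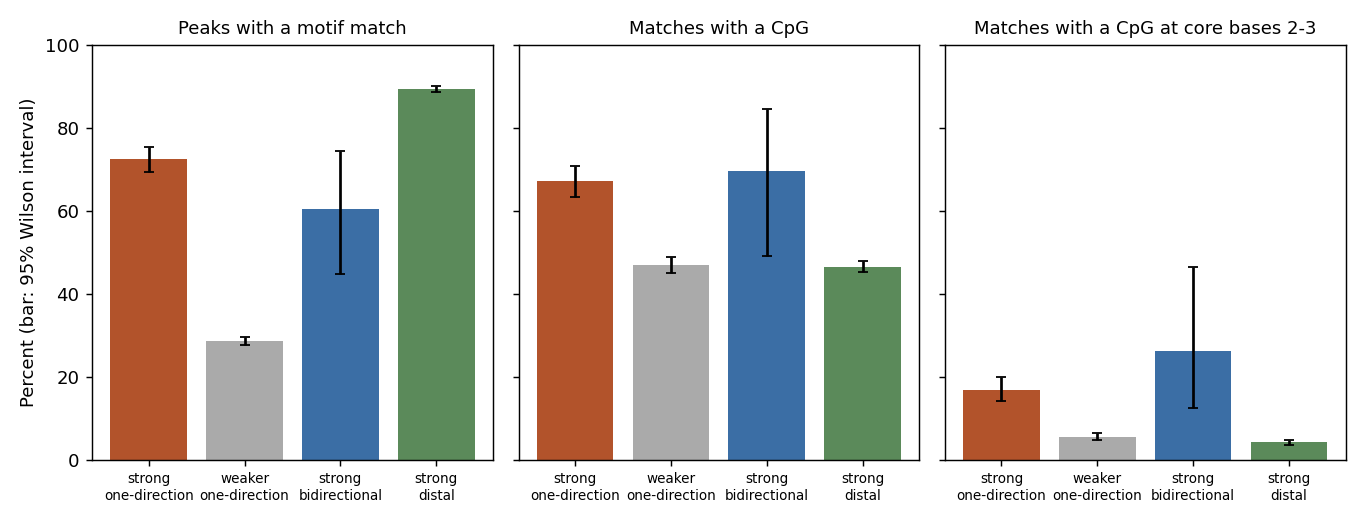
Share of peaks with a motif match (left), of matches with a CpG anywhere (middle) and of matches with a CpG at core bases 2 and 3 (right), in percent on the y axes, for strong and weaker one-direction promoter peaks, strong bidirectional promoter peaks and strong distal peaks; bars are shares with 95% Wilson intervals. Strong one-direction peaks stand at 72.5%, 67.1% and 16.8%, strong bidirectional peaks at 60.5%, 69.6% and 26.1%, and strong distal peaks at 89.3%, 46.5% and 4.20%.

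Outermost and internal promoters differed in these measures as well. At outermost starts 65.0% (60.8 to 68.9) of members had a match, 76.5% of the matches held a CpG and 24.9% (20.6 to 29.8) held one at core bases 2 and 3. At internal promoters 84.1% (79.8 to 87.6) had a match, 55.8% of the matches held a CpG and 7.02% (4.59 to 10.6) held one at core bases 2 and 3. The median CpG ratio was 0.676 at outermost starts and 0.316 at internal promoters. The median match score was 16.9 at the former and 18.7 at the latter.

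A set of 238 members had no match. Their best site scored 9.73 at the median, and 77.3% of them lay at the outermost start of a gene, against 54.5% of the members with a match. Upstream of the nearest TSS lay 205 of them (86.1%, 81.2 to 89.95), against 70.6% of those with a match. Their median CpG ratio was 0.702 against 0.469. The strongest was the peak of Vps18, which encodes a subunit of the endosomal HOPS complex, at rank 727 in replicate 1 and 25 in replicate 2. Its best site scored 12.7 and that of Comtd1, ranked 66 and 103, scored 13.1, both just under the threshold. Tmem270 ranked 799 and 109 with a best score of 10.95. Rrp1, which encodes a ribosome biogenesis factor, ranked 82 and 464, and its best site scored 4.85, so a high rank in both libraries also occurred without a near match.

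Short words for the sites of other promoter factors were searched on both strands in the 301 bp around each summit. A word is shorter than the factor's site and may overlap the CTCF match. The ETS word CCGGAAG lay at 93 members (10.8%, 8.87 to 13.01), among them Gins4, Med4, Twf2 and Adprhl2. It lay at 7.49% of weaker one-direction peaks and in 8.57% of windows of the same length centred on 81509 one-direction TSSs. The NRF1 word GCGCATGCG lay at 23 members (2.66%, 1.78 to 3.96), led by Med4, Tedc1, Fitm2 and Paxbp1, against 1.02% of weaker peaks and 1.42% of TSS windows. The SP word GGGGCGGGG lay at 59 members (6.83%, 5.33 to 8.71), against 10.1% and 10.7%. The TATA word TATAAAA lay at 15 (1.74%), against 2.63% and 4.04%, and the NFY word CCAATCA at 35 (4.05%), against 4.43% and 5.57%. The YY1 word AAGATGGCG lay at 17 (1.97%), against 1.39% and 1.84%. The ZNF143 word CTACAATTC lay at 1 member, Pafah2, against 0.375% of weaker peaks and 0.296% of TSS windows. These differences were not tested, and the words say nothing about binding of the factors.

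Neighbouring peaks were also described. The nearest other optimal peak lay 4483.5 bp away at the median, against 3526 bp for weaker one-direction peaks and 5255 bp for strong distal peaks, and 16 members had a neighbour within 500 bp. Along the direction in which a member's motif points, the next peak with a match lay 21074.5 bp away at the median. In 320 of 626 cases (51.1%, 47.2 to 55.0) its motif lay on the other strand and so faced the member. The share was 49.2% (47.3 to 51.1) for weaker one-direction peaks, which overlaps that of the members, 43.5% (25.6 to 63.2) for strong bidirectional peaks, 44.5% (43.1 to 45.9) for strong distal peaks and 48.0% (47.5 to 48.5) for all matched peaks. Adjacent peaks are not measured loops.

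Genes of protein and energy production had a member more often, by count, than protein-coding genes as a whole, and the difference was not tested. So did most of the smaller lists, such as clustered Hox genes (10.3%), renal stroma genes (13.04%), podocyte genes (9.52%) and proximal tubule genes (8%). A share above that of all genes is therefore not particular to protein and energy production. All protein-coding genes also include 1127 olfactory receptor genes, of which 1 had a member. Zfp, solute carrier, protocadherin and olfactory receptor genes were among the lists that did not. Of all 20780 protein-coding genes on chromosomes 1 to 19, 852 (4.10%) had a member within 1 kb of a TSS, and 8380 (40.3%) had any promoter peak. Of 76 cytosolic ribosomal protein genes 9 (11.8%) had a member, all 9 upstream of the TSS, and 43 (56.6%) had any promoter peak. Of all members 74.9% lay upstream, and of those at outermost starts 87.6%. Rplp0, which encodes a stalk protein of the large subunit, ranked 864 in replicate 1 and 1072 in replicate 2, and its summit lay 144 bp upstream. Rpl36 ranked 979 and 1281, with its summit 78 bp upstream. Of the 9, 6 held a match, and 5 of the 6 read with transcription.

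Of 72 nuclear genes of oxidative phosphorylation 9 (12.5%) had a member, 8 of them upstream, and 40 (55.6%) had any promoter peak. Ndufa6, which encodes a complex I subunit, led them at ranks 528 and 364, with a match on the other strand. Ndufc1, another complex I subunit gene, ranked 1673 and 615, and Atp5g2, which encodes a subunit of ATP synthase, 1163 and 879, both without a match. A match lay at 4 of the 9 peaks, and 3 of these read with transcription.

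The other gene families varied. Of 383 Zfp zinc-finger genes 10 (2.61%) had a member, led by Zfp398 (ranks 520 and 315), Zfp638 (316 and 1311) and Zfp385a (625 and 4220). Of 321 solute carrier genes 11 (3.43%) had one, all 11 upstream, against 74.9% of all members. They were led by Slc39a13, a zinc transporter gene (562 and 321), Slc36a1, an amino acid transporter gene (310 and 1118), and Slc2a4, which encodes the insulin-regulated glucose transporter (3097 and 313). Clustered protocadherins had none among 56 genes, although 41 of them (73.2%) had some other promoter peak. A count of 0 allows a share of up to 5.36% here, taken as 3 genes of the 56 and not as a Wilson limit. Olfactory receptors had 1 of 1127, Olfr557, at ranks 8125 and 2133 with a match score of 22.2. Of 39 clustered Hox genes 12 (30.8%) had any promoter peak and 4 (10.3%) had a member. These 4 were Hoxa7 (3596 and 1132), Hoxb5 (5308 and 1148), and Hoxc5 and Hoxc10, which share 1 peak (1584 and 6413). Imprinted genes had 2 of 39, Ppp1r9a (389 and 2222) and Blcap (6020 and 5137), neither with a match.

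**Figure D5:**
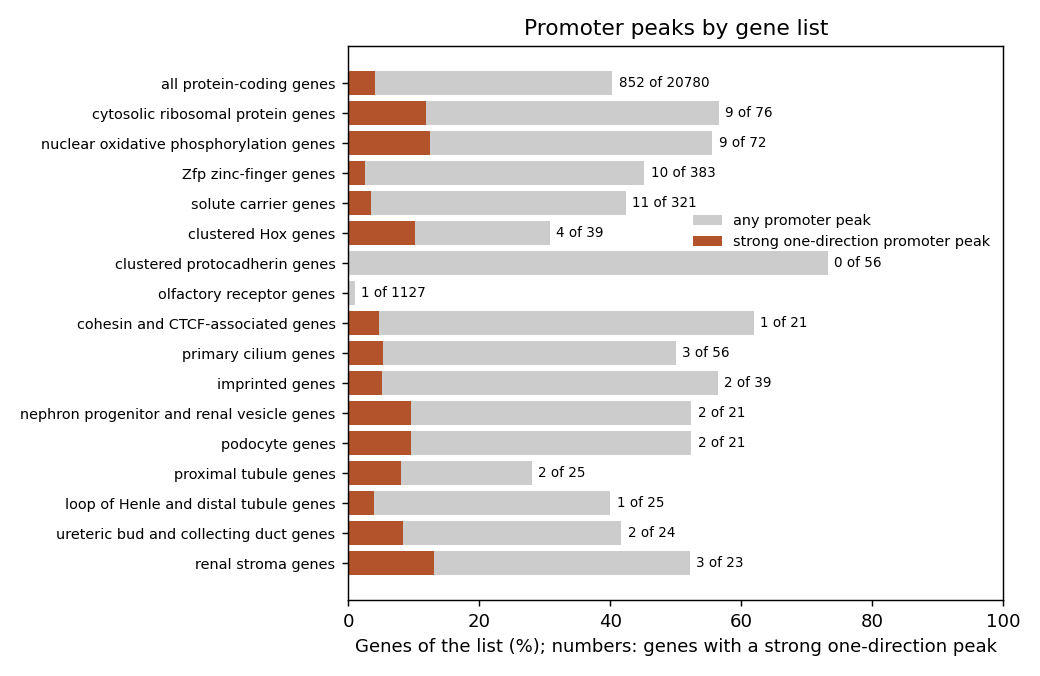
Share of the genes of each list (x axis, percent) with any CTCF promoter peak (grey) and with a strong one-direction promoter peak (red-brown), where the printed numbers count the latter. Ribosomal protein genes (9 of 76) and oxidative phosphorylation genes (9 of 72) stand above the 852 of 20780 of all protein-coding genes, as do most of the smaller lists. Protocadherins have 0 of 56.

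Kidney genes with such a peak were few in each list. Among renal stroma genes 3 of 23 (13.04%) had one. Col1a1 ranked 5333 in replicate 1 and 790 in replicate 2, Gli1 2152 and 3323, and Itga8, which encodes an integrin chain needed for ureteric bud outgrowth, 2275 and 3183. All 3 held a match. That of Itga8, with its summit 93 bp upstream, read with transcription, and those of Col1a1 (upstream) and Gli1 (downstream) lay on the other strand. Itga8 also stands in the list of nephron progenitor and renal vesicle genes, where it and Ccnd1, which encodes cyclin D1 (2056 and 840), were the 2 of 21 with a member. Among podocyte genes 2 of 21 had one, led by Vegfa, the vascular growth factor gene (896 and 1127).

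Along the tubule, 2 of 25 proximal tubule genes had a member. Slc6a19, which encodes the neutral amino acid transporter of the brush border, ranked 1282 and 809 with its summit 74 bp upstream and a match reading with transcription. Slc7a7, a cationic amino acid exchanger gene, ranked 3882 and 1856 and had no match. In the ureteric bud and collecting duct list 2 of 24 had one: Scnn1g, which encodes a subunit of the epithelial sodium channel (2044 and 797), and Wnt7b, a Wnt ligand gene (2649 and 7743), both with matches reading with transcription. Primary cilium genes had 3 of 56, B9d1, Inpp5e and Ift46, and cohesin and CTCF-associated genes 1 of 21, Stag1 (6782 and 2896), which encodes a cohesin subunit. With 1 to 3 genes a list, these shares are counts only and were not tested against the 4.10% of all genes.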

How the data were processed

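CTCF ChIP-seq of newborn kidney was deposited as 5 peak lists on mm10: 1 per library, 1 pooled, and conservative and optimal lists thresholded by IDR (irreproducible discovery rate), per the notes beside the files. The sources used here do not name the aligner, the peak caller or the threshold. The deposited signal value of each peak was used as the authors gave it, only as a rank or threshold within a list. The deposited −log10 q-value saturates and ranked nothing. The deposited summit offset, another column of the authors' lists, gave positions. No reads were reprocessed, and depth is unknown.

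TSSs were 90265 positions of all transcripts of protein-coding genes on chromosomes 1 to 19 in GENCODE M21; sequence was RefSeq GRCm38.p6, the same assembly. Computation used Python 3.11.15, numpy 2.4.6, pandas 2.3.3, scipy 1.17.1 and pysam 0.24.0. The matrix was learned from 33512 distal peaks with soft-masked bases left out, in 8 rounds from the known CTCF core, and the code was tested on simulated data. Library peaks were matched by an overlap of at least 1 bp.

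Members and gene lists were chosen with earlier results of these data known. Named members are the 12 strongest, the 3 on each side of the signal threshold, the 6 differing most between libraries, the 3 strongest of each position and strand class, up to 4 per word, the 4 strongest without a match, up to 3 per gene list, and the 19 genes with a pair of members. Some genes that this rule names are not reported here. Shares carry 95% Wilson intervals. No test between groups exists with 1 group. Alternatives were other signal thresholds, lists, windows, TSS sets, motif settings and each library alone.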

Additional observations from a re-analysis of the deposited data

How the results depend on the processing

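The main limits are the annotation of the TSSs, which were not measured in this tissue, and a motif threshold that splits a continuous score. Sequencing depth is unknown, so its part in the differences of rank between the libraries was not tested. No paired analysis was possible because the study has 1 group. The number of members was 488 with the upper 5% by signal, 1607 with the upper 20%, 661 with protein-coding transcripts only and 533 with gene 5′ ends only, against 864. The share upstream of the TSS was 81.2% with a 500 bp window, 68.7% with 2 kb, 81.8% with protein-coding transcripts only and 81.8% with gene 5′ ends only, against 74.9%. The share with a match was 68.9% in the upper 20%, 69.0% with 500 bp, 76.4% with 2 kb, 67.8% with protein-coding transcripts, 65.1% with gene 5′ ends, 17.7% at the score that 1 in 100000 positions passed and 79.3% with a matrix learned on odd and scored on even chromosomes, against 72.5%. The share of matches on the strand of transcription was 62.8% with 500 bp, 63.4% with protein-coding transcripts, 66.3% with gene 5′ ends, and, added after seeing the data, 66.3% at outermost and 47.7% at internal promoters of the members, against 57.8%. Within 200 bp upstream, a range also added after seeing the data, it was 77.4% with gene 5′ ends and 63.2% at internal promoters, against 72.1%. With each library left out in turn, members were 850 to 891, upstream 74.2% to 74.9% and matched 72.6% to 72.7%. On the strand of transcription the share was 58.2%, and within 200 bp 72.1% to 73.3%. The share with a long non-coding TSS on the other strand was 7.65% to 8.08%. All peaks stayed in the upper set of both libraries under every alternative run for that measure. Under all alternatives the share with a long non-coding TSS on the other strand ran from 6.97% to 9.83%.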
